A study of Drosophila melanogaster with 10 samples.

Results

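The 10 genes described here specify regions of the Drosophila wing imaginal disc, and were followed across RNA-seq libraries of discs of 4 genotypes. They are the notum genes tup, eyg, pnr, ara, caup and mirr and the wing pouch genes vg, nub, rn and Dll. These 10 of the 7987 genes in the deposited table were chosen by name with earlier results of these data known, so their levels are given as a description with no p-values. All 10 were in the table and passed the filter on low values, which kept 7858 genes. Other genes that pattern the same regions were tested, but their lists were also drawn up with those earlier results known and are not independent evidence.

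The study compared discs that overgrow with discs that do not, to find the transcripts that mark tumorous growth. All discs were dissected from larvae of the last instar and carried ap-Gal4, which drives transgenes in the dorsal compartment, with tubulin-Gal80ts, a temperature-sensitive brake on Gal4, and UAS-GFP. In ap > Yki+NelfAi discs (3 libraries, neoplastic overgrowth) the driver expressed Yki, the transcriptional coactivator of the Hippo pathway, with the RNAi construct KK106245 against Nelf-A, a subunit of the complex that holds RNA polymerase II paused near promoters. The ap > Yki discs (3 libraries, mild overgrowth or hyperplasia) expressed Yki alone, and the ap > NelfAi discs (2 libraries, wild-type growth) expressed the RNAi construct alone. The control was ap > GFP (2 libraries, wild-type growth), which has an additional copy of GFP. Each library came from pooled whole discs, so it also holds ventral cells outside the ap domain, and the fewest discs were pooled for ap > Yki+NelfAi. Where a gene is lower in such bulk RNA, fewer cells that express it and less RNA per cell cannot be told apart.

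The wing disc forms both the notum, the body wall of the back, and the wing blade, which arises from the pouch in the distal part of the disc. The notum genes encode a LIM-homeodomain factor (tup), a Pax factor (eyg), a GATA factor (pnr) and the 3 homeodomain factors of the Iroquois complex (ara, caup, mirr). Of the pouch genes, vg encodes the cofactor that makes Scalloped a wing selector, nub a POU-homeodomain factor, rn a zinc-finger factor and Dll a homeodomain factor that answers to Wingless. On build dm6, tup lies on chromosome arm 2L at 18859507 to 18881261, nub on 2L at 12587625 to 12628135, eyg on 3L at 12462537 to 12468021, pnr on 3R at 16026079 to 16041796 and rn on 3R at 7272617 to 7309629. An annotated transposable element overlaps an exon of pnr.

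The libraries held 6990931 to 13065642 reads on genes. Deposited values are these reads divided by a factor of the library and are called scaled reads here. Nelf-A was at 15.8 to 17.1 scaled reads in ap > Yki+NelfAi, at 11.4 and 32.9 in ap > NelfAi, and at 28.1 to 40.4 in the libraries of ap > Yki and ap > GFP. The gene yki, whose counts cannot be split into endogenous and transgene RNA, averaged 9815 ± 1620 scaled reads in ap > Yki+NelfAi and 3347 ± 686 in ap > Yki (SD, n = 3 each), against 131 ± 79.3 in ap > NelfAi and 286 ± 29.8 in ap > GFP (SD, n = 2 each). For Nelf-A, the library labelled ap > NelfAi replicate 2, with 32.9, thus lay within the range of libraries without the RNAi construct in these uncorrected values. The other one, ap > NelfAi replicate 1, had the lowest total and 8.88% of its reads outside annotated genes, against at most 4.89% in the other libraries. Its deviations from the mean of all libraries followed transcript length with a rho of -0.66, and those of ap > NelfAi replicate 2 with a rho of 0.49. With each library's trend with length removed, Nelf-A was at 18.3 in ap > NelfAi replicate 1 and 26.1 in replicate 2. The libraries of ap > Yki and ap > GFP were then all higher, at 31.1 to 37.4. The epithelial marker ap was present in every library, at 205 ± 64.3 scaled reads in ap > Yki+NelfAi, 158 ± 43.2 in ap > Yki (SD, n = 3 each), 98.4 ± 26.8 in ap > NelfAi and 130 ± 3.29 in ap > GFP (SD, n = 2 each).

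Per kilobase of exon, vg was the most abundant of the 10 genes in ap > GFP discs and pnr the least. Levels per kilobase in ap > GFP were 19.2 ± 0.256 for vg and 11.1 ± 0.349 for nub, then 8.97 ± 1.58 for mirr, 8.07 ± 1.47 for rn, 7.68 ± 0.693 for Dll, 7.64 ± 0.837 for caup and 7.10 ± 0.230 for ara (SD, n = 2). The 5 genes from mirr to ara did not differ from their neighbours in this order beyond their spread, whereas vg and nub stood apart. The other 3 notum genes were the lowest and also lay within each other's spread, eyg at 2.65 ± 0.711, tup at 2.56 ± 0.631 and pnr at 2.10 ± 0.0713 scaled reads per kilobase. In ap > Yki+NelfAi discs rn came first, at 12.8 ± 4.44 scaled reads per kilobase, and vg second, at 5.53 ± 0.218, with Dll, at 5.37 ± 1.33, within the spread of vg, and nub at 3.43 ± 1.51 (SD, n = 3). The last places in ap > Yki+NelfAi were taken by pnr, at 0.687 ± 0.141, and eyg, at 0.631 ± 0.0443 scaled reads per kilobase, which did not differ beyond their spread.

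Of the notum genes outside the Iroquois complex, eyg and pnr were lower in every ap > Yki+NelfAi library than in every other library, and tup was not. The gene eyg, which subdivides the notum along its anterior-posterior axis, had 1.99, 2.12 and 1.85 scaled reads in ap > Yki+NelfAi, 6.20, 5.94 and 7.71 in ap > Yki, 5.87 and 7.84 in ap > NelfAi, and 9.91 and 6.75 in ap > GFP. Its 3 ap > Yki+NelfAi libraries were close together and held 42, 31 and 37 reads on the gene. Relative to ap > GFP, eyg had a log2 fold change of -1.81 ± 0.23 (standard error) in ap > Yki+NelfAi and of -0.30 ± 0.23 in ap > Yki, where the groups overlapped. Against ap > Yki itself, eyg in ap > Yki+NelfAi was lower by a log2 fold change of -1.51 ± 0.21, a ratio of means of 3.33-fold. On this log2(value + 0.5) scale the change of genes with such low values is understated.

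The GATA factor gene pnr, which acts in the medial notum, was graded over ap > Yki+NelfAi, ap > Yki and ap > GFP. It had 3.08, 3.56 and 2.34 scaled reads in ap > Yki+NelfAi, 5.18, 4.46 and 6.36 in ap > Yki, 8.30 and 6.0 in ap > NelfAi, and 9.40 and 8.96 in ap > GFP. All ap > Yki+NelfAi libraries were below all ap > Yki libraries, which were in turn below both ap > GFP libraries. The library labelled ap > NelfAi replicate 2 fell within the range of ap > Yki. Relative to ap > GFP, pnr had a log2 fold change of -1.48 ± 0.24 in ap > Yki+NelfAi and of -0.74 ± 0.24 in ap > Yki, and ap > Yki+NelfAi differed from ap > Yki by -0.74 ± 0.22. By contrast, tup, which is required for notum identity, had 8.77, 4.25 and 3.54 scaled reads in ap > Yki+NelfAi, 4.10, 3.18 and 10.6 in ap > Yki, 4.61 and 6.37 in ap > NelfAi, and 9.97 and 7.02 in ap > GFP. Replicates of one genotype differed by up to 1.60 on the log2 scale, more than the 0.66 between the highest and lowest genotype means, and only ap > NelfAi was clear of ap > GFP.

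The 3 Iroquois genes lie side by side on chromosome arm 3L, all on the plus strand: ara at 12580672 to 12596018, caup at 12609631 to 12621798 and mirr at 12693639 to 12710249 (build dm6). No other gene of the table lies in the 13.6 kb between ara and caup, and 2 lie in the 71.8 kb between caup and mirr. Within the notum this complex acts in the lateral part, and in the pouch ara and caup mark prospective veins. The gene ara had 2.94, 4.73 and 6.53 scaled reads in ap > Yki+NelfAi, 10.3, 11.8 and 12.8 in ap > Yki, 17.9 and 21.6 in ap > NelfAi, and 21.4 and 20.4 in ap > GFP. The 3 levels of ara did not overlap: ap > Yki+NelfAi was lowest, ap > Yki intermediate, and ap > NelfAi and ap > GFP together highest. The ap > Yki+NelfAi discs differed from ap > GFP by -2.09 ± 0.28 on the log2 scale, or 4.41-fold by the ratio of means. On the log2(value + 0.5) scale the genotype means of ara spanned 2.09 and those of mirr 2.06, the widest of the 10 genes, while by the ratio of means mirr spanned more, at 4.62-fold between ap > Yki+NelfAi and ap > NelfAi.

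The neighbour caup had 9.58, 13.8 and 16.0 scaled reads in ap > Yki+NelfAi, 15.7, 16.1 and 22.0 in ap > Yki, 26.8 and 47.1 in ap > NelfAi, and 35.5 and 30.4 in ap > GFP. Both Yki-expressing genotypes were below the genotypes without Yki in every library, but they overlapped each other. On the log2 scale caup differed from ap > GFP by -1.32 ± 0.30 in ap > Yki+NelfAi and by -0.87 ± 0.30 in ap > Yki, and the pair of Yki genotypes differed by -0.45 ± 0.27. The more distant mirr had 7.92, 6.72 and 9.33 scaled reads in ap > Yki+NelfAi, 10.7, 13.7 and 22.9 in ap > Yki, 17.4 and 56.5 in ap > NelfAi, and 39.3 and 30.5 in ap > GFP. Its ap > Yki+NelfAi libraries lay below all others, while ap > NelfAi replicate 1 fell within the range of ap > Yki. For mirr the log2 fold change was -2.06 ± 0.46 in ap > Yki+NelfAi and -1.18 ± 0.46 in ap > Yki against ap > GFP. In their pattern over the 10 libraries, ara and caup were 0.38 apart and caup and mirr 0.40 (root mean square difference of centred log2 values). Such distances share library depth and scaling and are a description only.

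**Figure D1:**
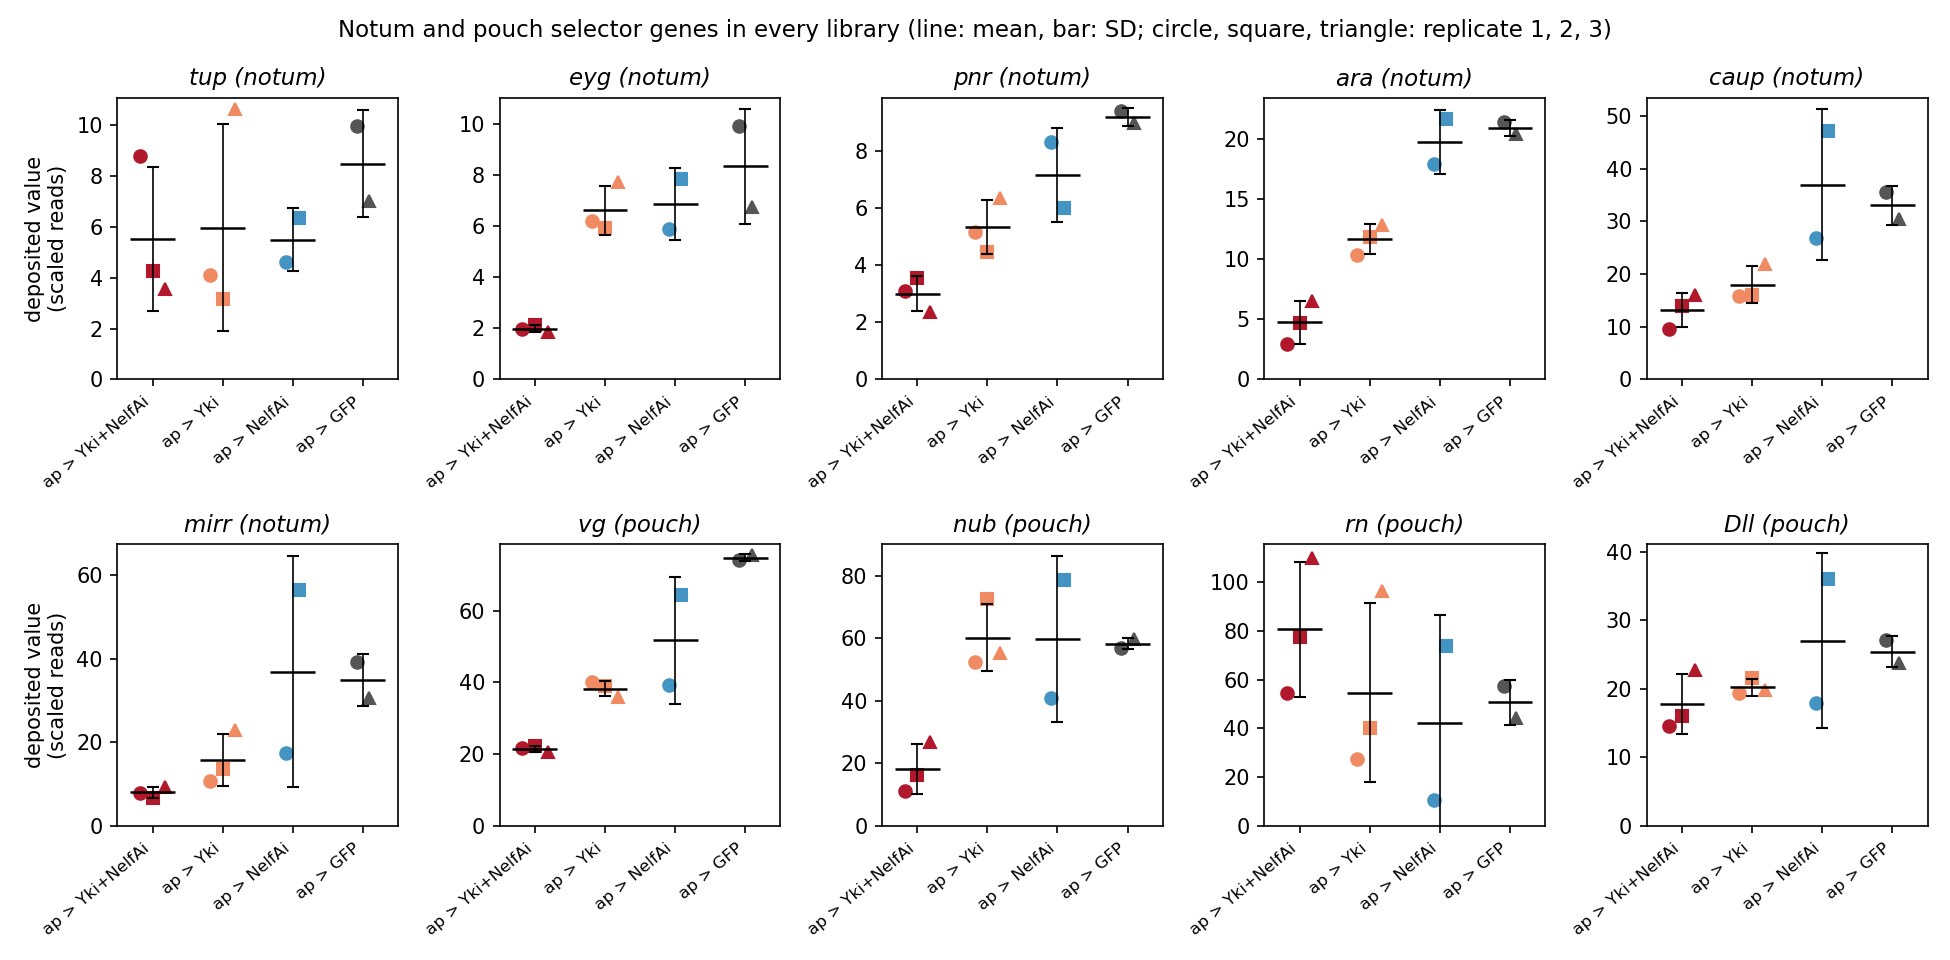
Each panel plots 1 gene, with scaled reads on a linear axis from 0 and the genotypes ap > Yki+NelfAi, ap > Yki, ap > NelfAi and ap > GFP from left to right. Points are libraries, lines are means and bars are SDs. For ara the ap > Yki+NelfAi libraries sit between 2.94 and 6.53 and the ap > GFP libraries at 21.4 and 20.4, whereas the libraries of rn and tup overlap between these genotypes.

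Beside the notum genes, the summed markers of the myoblasts that lie under the notum were also lower in ap > Yki+NelfAi when set against ap > GFP. The summed value of 7 markers of these adepithelial cells (7 of 7 in the table) ranged over 48.9 to 59.3 scaled reads in ap > Yki+NelfAi, 68.8 to 162 in ap > Yki, 61.2 to 116 in ap > NelfAi and 103 to 127 in ap > GFP, with no marker at 0. These 7 are given only as a sum, and ct among them is also on the list of other pouch genes tested below. Markers of the trachea attached to the disc (6 of 6) summed to 1477 to 1691 in ap > Yki+NelfAi and 1486 to 1715 in ap > Yki, against 569 to 893 in ap > NelfAi and 740 to 1016 in ap > GFP. Larval fat body markers (6 of 6) summed to 17.1 to 49.5 in ap > Yki+NelfAi, 16.0 to 168 in ap > Yki, 44.3 to 261 in ap > NelfAi and 32.9 to 38.2 in ap > GFP, with both ap > NelfAi libraries above both of ap > GFP. Markers of other discs (6 of 6) were below every other library in ap > Yki+NelfAi, at 14.2 to 17.5 in ap > Yki+NelfAi, 23.3 to 26.8 in ap > Yki, 24.6 to 35.6 in ap > NelfAi and 30.3 to 32.9 in ap > GFP, and 1 of the 6, Scr, was at 0 in all ap > Yki+NelfAi libraries. The summed markers of the wing disc epithelium itself (ap, sd, wg, hh and en) were above every other library in ap > Yki+NelfAi, at 375 to 565 in ap > Yki+NelfAi, 247 to 357 in ap > Yki, 184 to 308 in ap > NelfAi and 297 to 299 in ap > GFP. Of these, ap and sd averaged 205 and 142 scaled reads in ap > Yki+NelfAi, against 130 and 103 in ap > GFP. The marker en went the other way, averaging 3.44 in ap > Yki+NelfAi and 13.9 in ap > GFP. Hemocyte markers (5 of 6 in the table) summed to 13.2 to 22.3 in ap > Yki+NelfAi, 21.7 to 60.3 in ap > Yki, 21.7 to 29.9 in ap > NelfAi and 11.6 to 14.8 in ap > GFP. Neuron markers (3 of 5) overlapped between the genotypes. The part of these tissues in the levels of the notum and pouch genes was not tested.

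Among the pouch genes, vg and nub were lower in ap > Yki+NelfAi discs, and rn and Dll showed smaller or no separation. The wing selector cofactor gene vg, on chromosome arm 2R, had 21.7, 22.3 and 20.6 scaled reads in ap > Yki+NelfAi, 39.9, 39.1 and 35.8 in ap > Yki, 39.2 and 64.2 in ap > NelfAi, and 74.0 and 75.4 in ap > GFP. The replicates of vg were tight in all genotypes except ap > NelfAi, and the ap > Yki+NelfAi, ap > Yki and ap > GFP libraries formed 3 separate levels. Against ap > GFP the log2 fold change of vg was -1.77 ± 0.21 in ap > Yki+NelfAi, -0.96 ± 0.21 in ap > Yki and -0.57 ± 0.23 in ap > NelfAi. Once each library's trend with transcript length was removed, vg was at 54.3 and 55.0 in ap > NelfAi, against 70.6 and 74.1 in ap > GFP.

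The POU factor gene nub, a standard marker of the pouch, differed from vg in that its ap > Yki libraries lay on both sides of the control libraries. It had 11.2, 16.3 and 26.8 scaled reads in ap > Yki+NelfAi, 52.6, 72.5 and 55.4 in ap > Yki, 40.9 and 78.5 in ap > NelfAi, and 57.0 and 59.6 in ap > GFP. Every ap > Yki+NelfAi library was below every other library. In ap > Yki+NelfAi, nub differed by -1.75 ± 0.37 on the log2 scale from ap > GFP and by -1.78 ± 0.33 from ap > Yki, while ap > Yki against ap > GFP gave 0.03 ± 0.37. The ap > Yki+NelfAi replicates of nub were themselves 1.22 apart on the log2 scale, with replicate 3 highest.

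The zinc-finger gene rn, expressed in the pouch, was the only one of the 10 genes whose mean in ap > Yki+NelfAi exceeded that in the control. It had 54.5, 77.2 and 109.9 scaled reads in ap > Yki+NelfAi, 27.3, 40.3 and 96.2 in ap > Yki, 10.7 and 73.6 in ap > NelfAi, and 57.2 and 44.1 in ap > GFP. All 4 genotypes overlapped, and replicates of one genotype were up to 2.73 apart on the log2 scale. In ap > Yki+NelfAi the log2 fold change of rn was 0.62 ± 0.74 against ap > GFP and 0.70 ± 0.67 against ap > Yki, within the spread between replicates. The Wingless target Dll, also on 2R, had 14.6, 16.0 and 22.8 scaled reads in ap > Yki+NelfAi, 19.3, 21.6 and 19.7 in ap > Yki, 18.0 and 36.0 in ap > NelfAi, and 27.0 and 23.8 in ap > GFP. Both Yki-expressing genotypes lay below ap > GFP in every library, by small amounts: the log2 fold change of Dll was -0.53 ± 0.30 in ap > Yki+NelfAi and -0.32 ± 0.30 in ap > Yki.

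**Figure D2:**
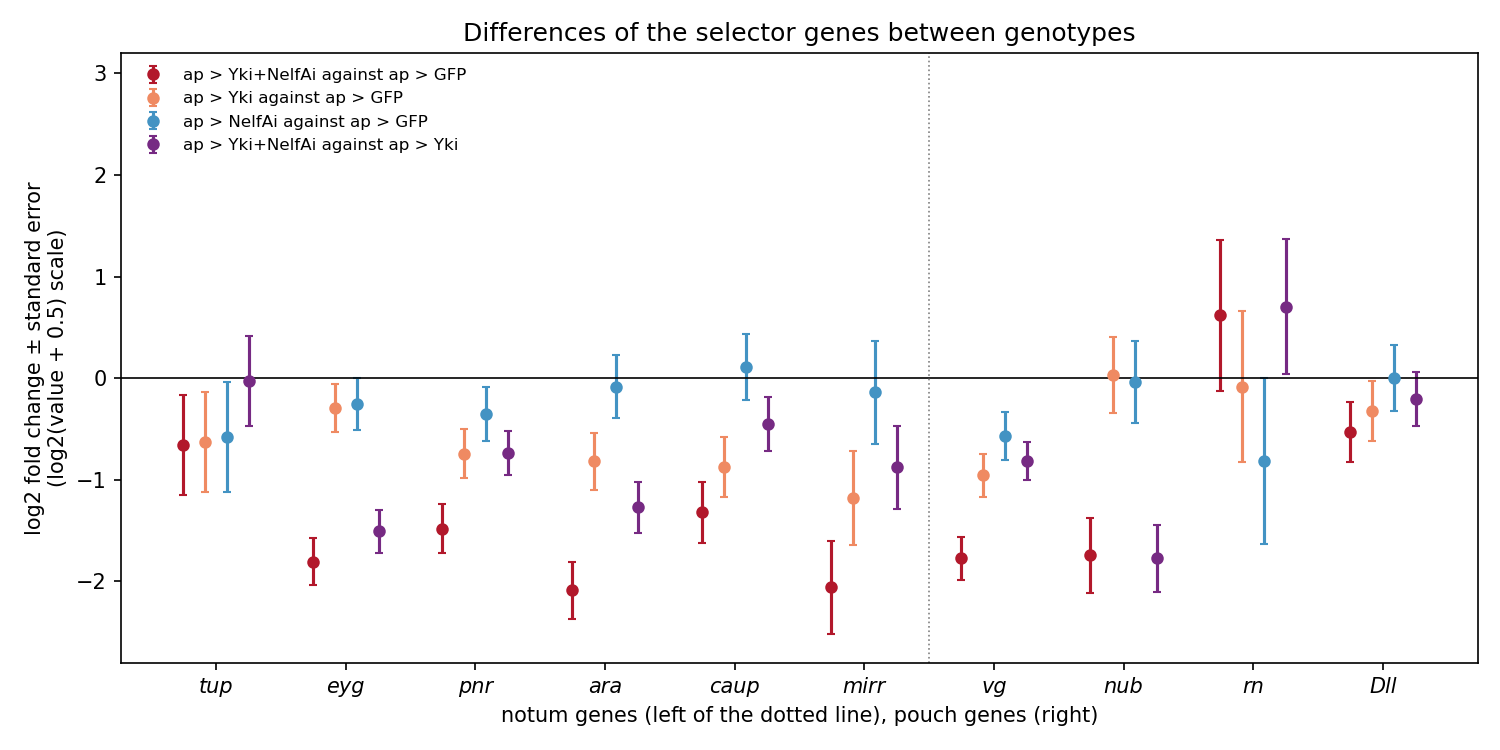
The log2 fold change of each gene (vertical axis, log2(value + 0.5) scale) is shown with its standard error from limma for 4 comparisons, notum genes to the left of the dotted line and pouch genes to the right. Between ap > Yki+NelfAi and ap > GFP, 7 genes lie between -1.32 and -2.09 and rn alone is above 0, while nub in ap > Yki against ap > GFP is at 0.03.

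Since the genes were chosen with these contrasts known, the counts that follow from the main fit are given beside the share of all tested genes. Counts under alternative settings have no such share beside them, so a change in count may not be particular to these genes. Nothing is read from any of these counts. Calls were made in limma where the adjusted p (Benjamini-Hochberg) was under 0.05 and the change reached 1.5-fold. Between ap > Yki+NelfAi and ap > GFP, 7 of the 10 genes were called, all as lower (eyg, pnr, ara, caup, mirr, vg and nub), beside 12.1% of all tested genes called lower and 22.1% called in either direction. Every ap > Yki+NelfAi library was below every ap > GFP library for 8 of the 10, beside 31.0% of all genes. The median log2 fold change of the 10 was -1.61, that of all tested genes 0.03. Of the notum genes 5 of 6 were called lower and of the pouch genes 2 of 4. When either of the ap > GFP libraries was left out, the calls of caup, mirr and nub were lost and 4 of the 10 were called.

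Yki without the Nelf-A knockdown gave a log2 fold change nearer 0 for each of the 10 genes; whether the 2 sizes differ was not tested. Between ap > Yki and ap > GFP, vg was the 1 gene called, as lower, beside 1.64% of all genes called lower and 4.05% called in either direction. Its call was lost, with 0 genes called, when any 1 library of ap > Yki+NelfAi, ap > Yki or ap > GFP was left out, or with the replicate number as a block. With the length trend removed 3 were called lower (caup, mirr and vg), and in a fit of these 2 genotypes alone 2 (ara and vg). When either ap > NelfAi library was left out, 2 were called lower (mirr and vg). All ap > Yki libraries were below both ap > GFP libraries for 6 of the 10 (pnr, ara, caup, mirr, vg and Dll), beside 19.3% of all genes, and the median log2 fold change was -0.69 against -0.01 for all genes.

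The knockdown without Yki gave 0 calls among the 10 genes between ap > NelfAi and ap > GFP, beside 0.0509% of all genes called lower and 0.0764% called in either direction. Over all genes tested 301 had an unadjusted p under 0.05, and edgeR and DESeq2 on recovered reads also gave 0 calls among the 10. Both ap > NelfAi libraries were below both ap > GFP libraries for tup, pnr and vg, 3 of the 10, beside 12.8% of all genes. Without the library labelled ap > NelfAi replicate 2, vg was called lower in this comparison. The comparisons with ap > GFP share its 2 libraries.

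Set against ap > Yki, the ap > Yki+NelfAi discs had lower eyg, pnr, ara, vg and nub. Besides the knockdown, these genotypes differed in yki RNA, at 9815 ± 1620 scaled reads in ap > Yki+NelfAi and 3347 ± 686 in ap > Yki (SD, n = 3 each). The part of that difference in the levels of the 10 genes was not tested. The 5 genes eyg, pnr, ara, vg and nub, of the 10, were called, beside 10.2% of all genes called lower and 17.4% called in either direction. The libraries did not overlap for 6 of the 10, these 5 and mirr, beside 21.6% of all genes, and the median log2 fold change was -0.78 against 0.02 for all genes. The calls of eyg, ara and nub were kept under all 21 alternative settings, and leaving out single libraries brought the count down to 3 (without ap > Yki replicate 1, for example) or up to 6 with mirr (with either ap > NelfAi library left out). With the replicate number as a block 4 were called. Against ap > NelfAi, 7 of the 10 were called, all as lower in ap > Yki+NelfAi, beside 9.11% of all genes called lower and 17.5% called in either direction. All ap > Yki+NelfAi libraries were below both ap > NelfAi libraries for 7 of the 10, beside 20.6%, and the median log2 fold change was -1.32 against 0.04. In a fit of these 2 genotypes alone, 2 genes (eyg and ara) were called. Without ap > NelfAi replicate 1, Dll was called lower as well, making 8, and when the library labelled ap > NelfAi replicate 2 was left out, 7 were called lower and rn was called higher.

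In ap > NelfAi and ap > Yki, the libraries with a trend toward long transcripts had the higher levels of rn, mirr and tup. For rn, whose exons cover 6273 bases, the most of the 10 genes, ap > NelfAi replicate 1 (rho -0.66) had 10.7 scaled reads and ap > NelfAi replicate 2 (rho 0.49) had 73.6. Likewise ap > Yki replicate 3 (rho 0.47) had 96.2 scaled reads of rn, against 27.3 and 40.3 in the other two ap > Yki libraries (rho -0.21 and -0.13). With the trend removed, rn was at 45.4, 81.2 and 107 in ap > Yki+NelfAi, 30.6, 42.5 and 74.8 in ap > Yki, 18.2 and 56.5 in ap > NelfAi, and 52.3 and 42.5 in ap > GFP, and the 4 genotypes still overlapped. For rn the same order was not seen in ap > Yki+NelfAi, where replicate 1, with the highest rho of the 3 (0.29), had the lowest level. That library had the highest tup of its genotype, at 8.77 scaled reads against 4.25 and 3.54, while mirr was highest in replicate 3, at 9.33. Between the ap > NelfAi libraries the correction narrowed the gap of nub, to 63.3 and 63.2, and of caup, to 40.3 and 38.6. It widened that of pnr, whose ap > NelfAi libraries were at 11.5 and 5.11 after it, one above and one below the ap > GFP libraries at 8.96 and 8.81. With the trend removed the same 7 genes were called between ap > Yki+NelfAi and the control.

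**Figure D3:**
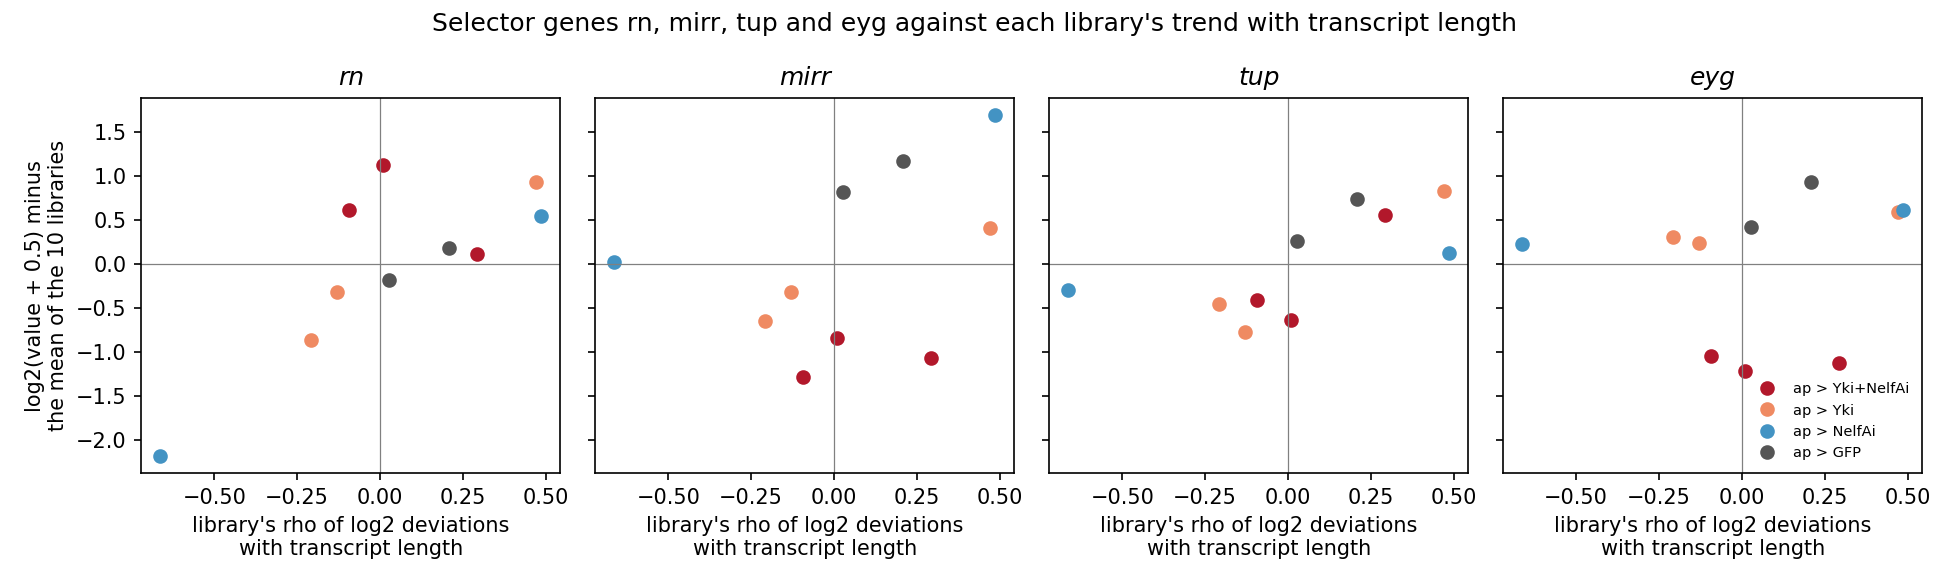
For rn, mirr, tup and eyg, each library's log2(value + 0.5) minus the mean of the 10 libraries (vertical axis) is plotted against the rho of that library's deviations with transcript length over all genes (horizontal axis). For rn the ap > NelfAi libraries are at the ends of the horizontal axis, at rho -0.66 and 0.49, and also far apart in level, whereas the eyg libraries of ap > Yki+NelfAi stay below all others.

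The balance of notum over pouch genes inside a library depends little on the factor of that library, which enters only through the pseudocount. The mean log2 level of the 6 notum genes minus that of the 4 pouch genes was -2.00, -2.27 and -2.64 in ap > Yki+NelfAi, -1.98, -2.26 and -1.80 in ap > Yki, -1.04 and -1.86 in ap > NelfAi, and -1.51 and -1.68 in ap > GFP. With all 10 genes, libraries of ap > Yki+NelfAi and of ap > Yki were thus further on the pouch side than those of ap > GFP, and overlapped each other. The difference between ap > Yki+NelfAi and ap > GFP was -0.71 on the log2 scale with all 10 genes and -0.22 when rn was left out. Without rn the libraries were at -1.55, -1.75 and -2.09 in ap > Yki+NelfAi and at -2.06, -2.26 and -1.43 in ap > Yki. Both genotypes then overlapped ap > GFP, at -1.45 and -1.70, so the separation depended on rn.

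Genes of the same regions outside the 10 were tested in the same fit, with 28 of the 29 listed genes in the table (B-H2 was not analysed here). Relative to ap > GFP, 9 of the 28 fell and 2 rose in ap > Yki+NelfAi (limma, Benjamini-Hochberg over 7858 genes), beside 12.1% of all tested genes called lower and 789 of 7858 called higher, and the median log2 fold change of the 28 was -0.74, against 0.03 for all genes. Notum genes made up 6 of the 9, from 11 tested, and the median of these 11 was -1.64. The paralogs of eyg and nub were among the 9: toe, the Pax gene 29.9 kb from eyg, and pdm2, the POU gene 29.0 kb from nub, each with no other gene of the table between.

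The level of pdm2 was 0.285, 0.274 and 1.10 scaled reads in ap > Yki+NelfAi (6, 4 and 22 reads) and 9.38, 10.2 and 19.1 in ap > Yki, against 5.28 and 15.7 in ap > NelfAi and 13.8 and 15.5 in ap > GFP. All ap > Yki+NelfAi libraries were below all others, and pdm2 had the largest fall of the 28 genes, with differences on the log2 scale of -3.94 ± 0.49 (adjusted p = 0.00064) against ap > GFP and -3.69 ± 0.44 (adjusted p = 0.000749) against ap > Yki. The Pax gene toe was at 3.18, 5.07 and 5.14 scaled reads in ap > Yki+NelfAi, against 16.7 and 13.4 in ap > GFP, a log2 fold change of -1.67 ± 0.27 (adjusted p = 0.00222). Both pairs of neighbouring paralogs were lower together in ap > Yki+NelfAi. How reads that fit both paralogs of a pair were counted was not tested.

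The proneural genes ac and sc, which are activated in the notum downstream of pnr and the Iroquois genes, fell as well. Against ap > GFP, the log2 fold changes were -2.08 ± 0.36 for ac (adjusted p = 0.00317) and -2.09 ± 0.36 for sc (adjusted p = 0.0032). In scaled reads ac averaged 1.02 ± 0.383 in ap > Yki+NelfAi (SD, n = 3) and 5.79 ± 0.0525 in ap > GFP (SD, n = 2), and sc 1.52 ± 0.812 in ap > Yki+NelfAi and 7.62 ± 1.61 in ap > GFP. Other notum genes that fell were the homeodomain gene B-H1 (-1.95 ± 0.30, adjusted p = 0.00181), tio, the paralog of teashirt (-2.15 ± 0.50, adjusted p = 0.0135), and ush, which encodes a cofactor of Pannier (-1.64 ± 0.51, adjusted p = 0.0452). B-H1 rested on 0, 2 and 3 reads in ap > Yki+NelfAi and on 29 and 32 reads in ap > GFP, so that its fitted fold change depends on the pseudocount. In ap > Yki all libraries were also below both ap > GFP libraries for B-H1 (-1.14 ± 0.30, not called), beside 19.3% of all genes. The call of ush was lost in 8 of 21 alternatives, in which its adjusted p reached 0.216. The notum genes that were not called ranged from a log2 fold change of -1.19 for tsh, the teashirt gene, to 1.97 for vn, which encodes a ligand of the EGF receptor. Both vn (52.6 ± 22.4 scaled reads in ap > Yki+NelfAi, SD, n = 3, and 12.3 ± 0.980 in ap > GFP, SD, n = 2, adjusted p = 0.0627) and the homeobox gene Dr (log2 fold change of 1.11 ± 0.36, adjusted p = 0.0544) had all ap > Yki+NelfAi libraries above both ap > GFP libraries. Upward separation of this kind was found for 2618 of all 7858 tested genes. In ap > Yki, Dr likewise had all libraries above both ap > GFP libraries (1.18 ± 0.36, not called), beside 1712 of 7858 genes.

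Of the 12 pouch genes outside the 10, 2 fell, a share close to the 12.1% of all genes called lower, and their median log2 fold change was -0.26. Whether the notum and pouch lists differ was not tested. Besides pdm2 it was kn that fell, the COE factor gene of the central wing region, with a log2 fold change of -2.35 ± 0.46 (adjusted p = 0.00612), lost without ap > GFP replicate 3 (adjusted p = 0.0593). It rested on 0, 13 and 17 reads in ap > Yki+NelfAi, and over the alternatives its log2 fold change ranged from -3.34 to -1.86. The Scalloped gene sd, partner of vg, averaged 142 ± 30.3 scaled reads in ap > Yki+NelfAi (SD, n = 3) and 103 ± 4.01 in ap > GFP (SD, n = 2) and was not called. Every ap > Yki+NelfAi library was above both ap > GFP libraries for 4 of the 12, sd among them, beside 2618 of all 7858 genes. For 6 of the 12 every such library was below both, beside 2438 of all genes. The pouch genes that were not called ranged from a log2 fold change of -1.80 for bi to 0.61 for Bx.

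Of the 5 hinge and pleura genes, dac fell and the T-box genes Doc1 and Doc3 rose. The nuclear factor gene dac was at 0.453 ± 0.0641 scaled reads in ap > Yki+NelfAi and 5.87 ± 0.205 in ap > GFP, a log2 fold change of -2.74 ± 0.35 (adjusted p = 0.000772). It rested on 8, 7 and 10 reads in ap > Yki+NelfAi, and over the alternatives its log2 fold change ranged from -3.73 to -2.24. Doc1 averaged 17.9 ± 2.17 scaled reads in ap > Yki+NelfAi and 10.2 ± 2.01 in ap > GFP, with a log2 fold change of 0.79 ± 0.19 (adjusted p = 0.0178). Doc3 had 34.3, 12.2 and 15.3 scaled reads in ap > Yki+NelfAi against 9.27 and 6.26 in ap > GFP (adjusted p = 0.0449), a call lost in 7 of 21 alternatives, with an adjusted p of up to 0.284 (without ap > GFP replicate 3). Those not called were zfh2, at a log2 fold change of -0.54, and Doc2, at 0.49. In ap > Yki, all libraries were also below both ap > GFP libraries for dac (-1.36 ± 0.35), beside 19.3% of all genes. They were above both for Doc1 (0.41 ± 0.19), Doc2 (0.58 ± 0.21) and Doc3 (0.34 ± 0.38), beside 1712 of 7858 genes. These ap > Yki differences were not called.

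**Figure D4:**
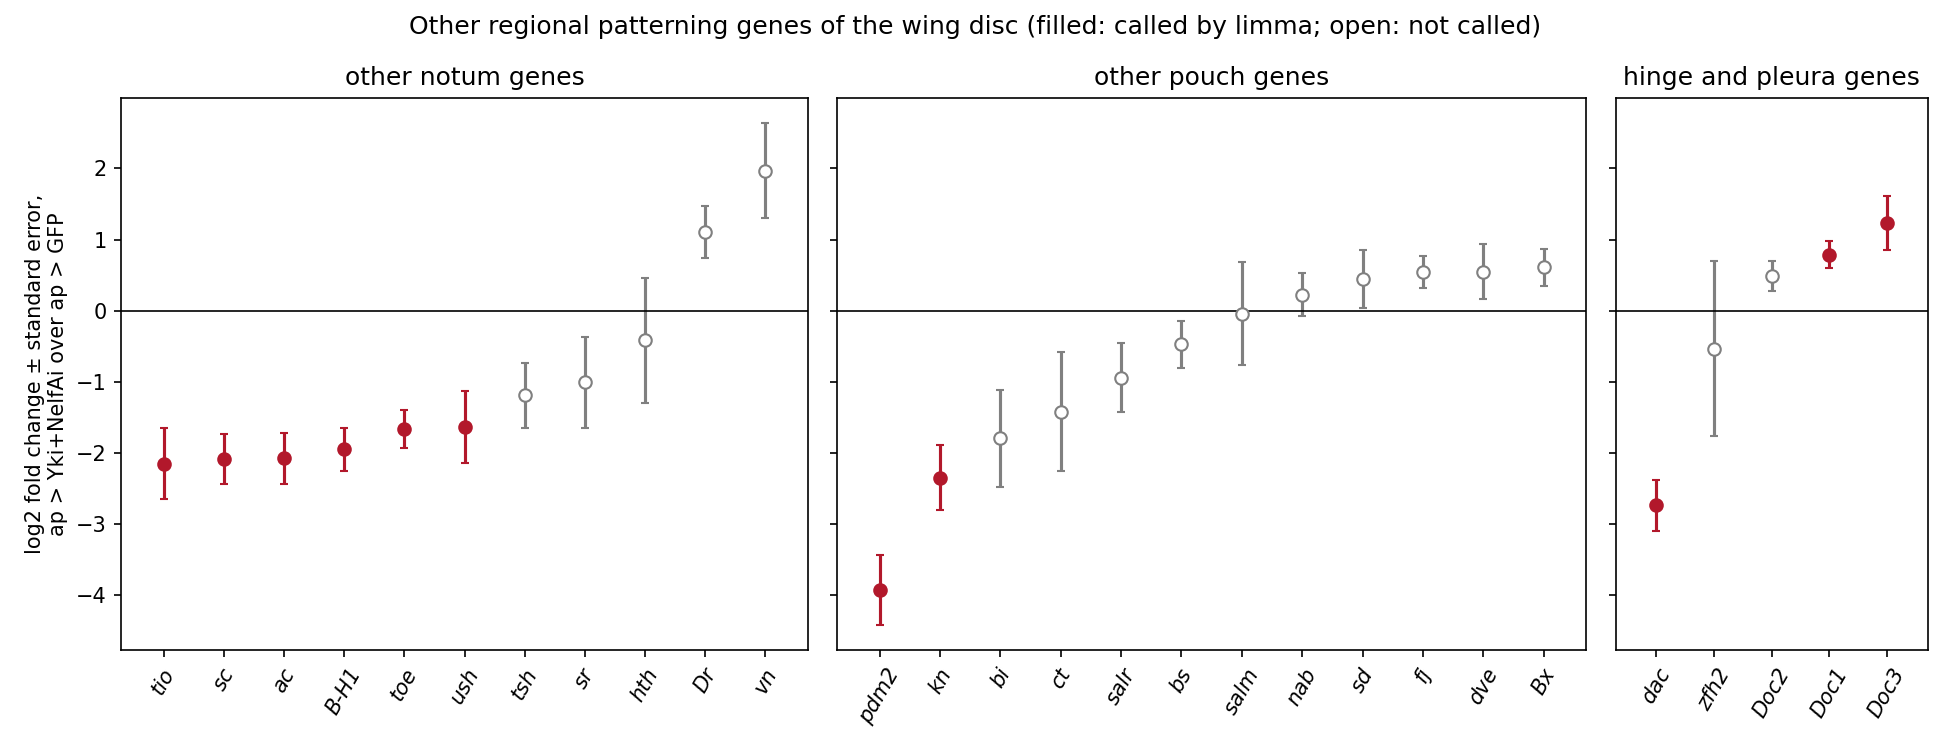
The log2 fold change of ap > Yki+NelfAi over ap > GFP (vertical axis) with its standard error is shown for 28 regional genes outside the 10, in 3 panels by region. Filled points were called by limma. In the notum panel 6 of 11 genes are called lower, from -1.64 for ush to -2.15 for tio, and in the pouch panel pdm2 at -3.94 and kn at -2.35.

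Against ap > Yki, 7 of the 28 genes fell in ap > Yki+NelfAi and 1 rose, beside 10.2% of all genes called lower and 566 of 7858 called higher. Those that fell were toe (-1.62 ± 0.24, adjusted p = 0.00203), tio (-1.91 ± 0.44, adjusted p = 0.0171), ac (-2.14 ± 0.32, adjusted p = 0.00205), sc (-1.61 ± 0.32, adjusted p = 0.00842), pdm2, kn (-2.27 ± 0.41, adjusted p = 0.00521) and dac (-1.38 ± 0.32, adjusted p = 0.0163). The gene that rose was fj, which encodes a Golgi kinase of the Fat and Dachsous pathway (0.70 ± 0.20, adjusted p = 0.0393), lost in 8 of 21 alternatives with an adjusted p of up to 0.123. Against ap > NelfAi, 7 fell and 2 rose, beside 9.11% called lower and 657 of 7858 called higher. The one not yet named as changed was vn, whose ligand promotes notum fate, with a log2 fold change of 2.47 ± 0.67 (adjusted p = 0.0325) and 78.1, 43.6 and 36.1 scaled reads in ap > Yki+NelfAi against 3.69 and 19.1 in ap > NelfAi. The call of vn held in 9 of 20 alternatives and was lost without ap > NelfAi replicate 1, among others.

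Neither single transgene gave a call among the 28 genes in the main limma fit. Between ap > Yki and ap > GFP 0 were called, beside 4.05% of all genes. An unadjusted p under 0.05 was found for 4, beside 1400 of all 7858 genes. DESeq2 on recovered reads called 2, limma in the 2-genotype fit 2, and limma with the length trend removed 3. Between ap > NelfAi and ap > GFP 0 were called, beside 0.0764% of all genes, and DESeq2 called 0. Here 1 had an unadjusted p under 0.05, beside 301 of all genes.

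On the log2(value + 0.5) scale ara among the notum genes and nub among the pouch genes had the widest range of genotype means, although mirr was close to ara, vg was level with nub, and both spanned more than these by the ratio of means. The genes most like ara and nub were sought among the 6064 tested genes with a mean of at least 5 scaled reads, by the root mean square difference of centred log2 values over the 10 libraries. Nearest to nub were inv (0.198), esn (0.205), en (0.221), CG6163 (0.246) and CG7896 (0.256). The paired homeobox genes inv and en mark the posterior compartment of the disc. In scaled reads inv averaged 3.70 in ap > Yki+NelfAi, 14.0 in ap > Yki, 11.9 in ap > NelfAi and 11.5 in ap > GFP, and en 3.44 in ap > Yki+NelfAi, 15.2 in ap > Yki, 12.4 in ap > NelfAi and 13.9 in ap > GFP. Like nub, both were low in ap > Yki+NelfAi alone.

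Nearest to ara were CG4238 (0.157), MP1 (0.252), CG1607 (0.276), CG2852 (0.278) and CG9628 (0.298). The protease gene MP1 averaged 8.34 scaled reads in ap > Yki+NelfAi, 23.5 in ap > Yki, 28.5 in ap > NelfAi and 36.2 in ap > GFP, graded as ara was. Among the 10 genes themselves the closest pair was pnr and vg, a notum and a pouch gene, at 0.322, and rn was distant from all others, at 0.905 from Dll up to 1.46 from ara.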

How the data were processed

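Genotypes of the 10 RNA-seq libraries were taken from the labels. HISAT was used for alignment by the authors, and the deposited signal for 7987 genes is the read number of a gene over a factor of its library. The submitters' processing notes name the build dm6. Whole reads were recovered for 100% of values (tolerance 0.001 read). Rows naming no gene, 28.4% to 36.5% of reads, were left out. The authors' own fold changes and p-values were not used. limma 3.58.1 (R 4.3.3) was fitted to log2(value + 0.5) in 1 model with genotype as factor, keeping genes that reached a value of 1 in 2 or more libraries. Alternatives were edgeR 4.0.16 (TMM, RLE) and DESeq2 1.42.0 on recovered reads, TMM-rescaled values, pseudocounts of 0.1 and 1, no filter, 2-genotype fits, a replicate block, a lowess correction for transcript length in each library (span 0.3), and each library left out. The fits were tested on simulated data. The methods give 3 biological replicates and the deposited design 2, and p-values measure only the spread between these libraries.

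The members and all gene lists were chosen with earlier results of these data known. Genes named are the 10 members, every listed regional gene called in a comparison or bounding the range of those not called against ap > GFP, the 5 genes nearest ara and nub in pattern, and ap, Nelf-A and yki. The partner gene sd and the notum gene Dr were named after their values were seen. Gene positions and exon lengths come from an Ensembl annotation of the same build, matched by symbol for 7876 genes.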

Additional observations from a re-analysis of the deposited data

How the results depend on the processing

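The count of regional genes called outside the 10 in ap > Yki+NelfAi against ap > GFP was 11, and 17 in the fit of those 2 genotypes only and 17 with the length trend removed. Leaving out 1 library gave 6 to 15 (6 without ap > GFP replicate 3). In ap > Yki against ap > GFP the count was 0, and 2 with DESeq2, 2 in the 2-genotype fit, 3 with the length trend removed, 2 without both ap > NelfAi libraries (chosen after seeing the data) and 0 to 2 with 1 library left out. In ap > NelfAi against ap > GFP it was 0, and 0 to 6 with 1 library left out (6 when the library labelled ap > NelfAi replicate 2 was out). The count for ap > Yki+NelfAi against ap > Yki was 8, and 13 with DESeq2, 13 in the 2-genotype fit, 14 with the length trend removed, 13 without both ap > NelfAi libraries and 5 to 14 with 1 library left out (5 without ap > Yki+NelfAi replicate 2). Against ap > NelfAi it was 9, and 4 in the 2-genotype fit and 18 with the length trend removed. With a replicate block the counts were 10, 0, 0, 7 and 7 in these 5 comparisons. The deviations of same-numbered libraries of ap > Yki+NelfAi and ap > Yki had correlations of -0.27, 0.14 and -0.23. Those of ap > Yki and ap > NelfAi had correlations of 0.59 for replicate 1 and -0.43 for replicate 2. These deviations are taken from genotype means over few libraries, so they cannot tell whether the numbers pair the samples. The share of all genes called under each alternative is not given, so a change in count may not be particular to these genes. The cause of the changes in the counts was not tested.

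The notum minus pouch difference of ap > Yki+NelfAi minus ap > GFP, -0.71, was -1.02 without vg, -1.01 without nub and -0.22 without rn. That of ap > Yki minus ap > GFP, -0.42, was -0.63 without vg, and that of ap > Yki+NelfAi minus ap > Yki, -0.29, was -0.71 without nub and 0.12 without rn. Of 1030 fold changes of the 10 genes under alternatives, 1004 moved by less than the replicate SD, 26 by more, and 0 that had been called changed sign. Of 579 fold changes of the other called genes, 523 were still called and 56 were not, with 0 changes of sign. In ap > Yki+NelfAi against ap > GFP, tio was lost without ap > GFP replicate 1 (adjusted p = 0.102), ap > GFP replicate 3 (0.0701) or ap > Yki+NelfAi replicate 2 (0.0501). Doc1 was lost without ap > GFP replicate 3 (0.188) or ap > Yki+NelfAi replicate 1 (0.0596). Against ap > Yki, tio was lost without ap > Yki replicate 3 (0.052) or ap > Yki+NelfAi replicate 2 (0.071), and dac without ap > Yki replicate 1 (0.0681) or ap > Yki+NelfAi replicate 1 (0.0512) or 2 (0.0527). Genes such as eyg, pnr, B-H1, pdm2, kn and dac rested on few reads in ap > Yki+NelfAi, which limits the precision of their fold changes.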
